A study of Mus musculus with 19 samples.

Results

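Lipoproteins carry cholesterol and triglycerides through the blood, and the liver makes most of the proteins on their surface. The transcripts examined here are those of 9 apolipoproteins (Apoa1, Apoa2, Apoa4, Apoa5, Apob, Apoc2, Apoc3, Apoe and Apom) and of Mttp, the microsomal triglyceride transfer protein, which were taken by gene symbol from a liver RNA-seq table of 24054 genes by a rule that does not refer to their values, although earlier results of these data were known when they were chosen. All 10 were found and all 10 passed the filter on low values, which 11580 genes passed. The livers came from 3 L-RalyKO mice and 3 control mice, all Raly flox/flox on a C57BL/6 background and fed chow, and all of them received an adeno-associated virus of serotype 8 with the TBG promoter, which is active in hepatocytes. The virus carried Cre recombinase in L-RalyKO mice (AAV8.TBG.Cre) and GFP in controls (AAV8.TBG.GFP), and tissue was taken 4 weeks later. In the labels the controls are wild type, although they carry the floxed allele and a virus as well. The study's figure legend gives 4 mice per group for the liver RNA-seq, whereas the data used here hold 3 per group. The study used males unless it says otherwise, and neither the labels nor the methods give the age of these mice. Cre was thus aimed at hepatocytes, and Raly of other liver cells was not targeted. RALY is an RNA-binding protein of the hnRNP family, which the study examined for its part in hepatic cholesterol metabolism. The comparison below shows how the transcripts of the lipoprotein proteins differed when hepatocytes lacked it.

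Very low-density lipoprotein (VLDL) is built in the endoplasmic reticulum around a single molecule of apolipoprotein B, onto which Mttp loads lipid, and it leaves the cell through the secretory pathway. High-density lipoprotein (HDL) forms around apolipoprotein A-I. Smaller apolipoproteins exchange between the particles, where they activate or restrain the lipases of the circulation (Apoc2, Apoc3 and Apoa5) or bind the receptors that clear remnants (Apoe). In the mouse, Apoa1, Apoc3, Apoa4 and Apoa5 lie side by side on chromosome 9, and Apoe, Apoc1, Apoc4 and Apoc2 on chromosome 7.

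Values are reads per gene that the authors scaled to each library's effective size (counts per 1e6, CPM). They are not divided by gene length. Between 28302983 and 38052705 reads per mouse were counted on genes, so that 3 reads correspond to a value of 0.0789 to 0.105. Groups were compared with limma on log2(value + 1) and Benjamini-Hochberg adjustment over the 11580 genes, and all log2 fold changes are on that scale, with L-RalyKO over control. By this test 758 genes (6.55%) had an adjusted p under 0.05, of which 51.3% were higher in L-RalyKO liver. With scaling to total counts that share was 40.9%, and the median of all genes moved by only −0.03 on the log2 scale. The p values measure the spread between mice, and an exact permutation test of 3 mice against 3 cannot go below 0.1. Raly, which Cre was to delete, was at 50.1, 48.6 and 46.8 in control livers and at 6.34, 6.61 and 7.39 in L-RalyKO livers, and it fell by 2.67 on the log2 scale (standard error, SE, of 0.069, limma adjusted p = 6.92e-07). Control 1 stood apart from the other controls. A chi-square of its reads against theirs, divided by its degrees of freedom, was 71.1 and 84.3 (1 would be counting noise alone), against 18.2 between controls 2 and 3 and 12.6 to 27.4 between L-RalyKO mice. In control 1 the adipocyte gene Cfd was at 12.6, against 2.74 and 3.46 in the other controls, and Lep and Retn had reads in that mouse alone. Without control 1, 368 genes passed the test, and without other mice in turn there were 540 (control 2), 812 (control 3), 335 (L-RalyKO 1), 440 (L-RalyKO 2) and 502 (L-RalyKO 3). In whole liver, fewer cells that make a transcript and less transcript per cell cannot be told apart.

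Of the 10 transcripts, 1 passed the test, against 6.55% of all genes tested. Apom rose in L-RalyKO liver, by 1.43-fold, where 3.36% of all genes rose and 3.19% fell, while Apob, the structural protein of VLDL, and Mttp, which loads it with lipid, did not pass. At an unadjusted p under 0.05 there were 2 of 10 (Apom and Apoa1), against 22.7% of all genes. The groups did not overlap for 4 of the 10, Apom and Apoa1 being higher and Apoa2 and Mttp lower in every L-RalyKO mouse, where 28.1% of all genes did not overlap. The log2 fold change was positive for 5 of the 10 and negative for 5, with a median of −0.01 (0.004 over all genes). The 10 transcripts together took 3.44 to 3.67% of all gene reads in controls (median 3.51%) and 3.38 to 3.57% in L-RalyKO mice (median 3.44%), and the groups overlapped.

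**Figure D1:**
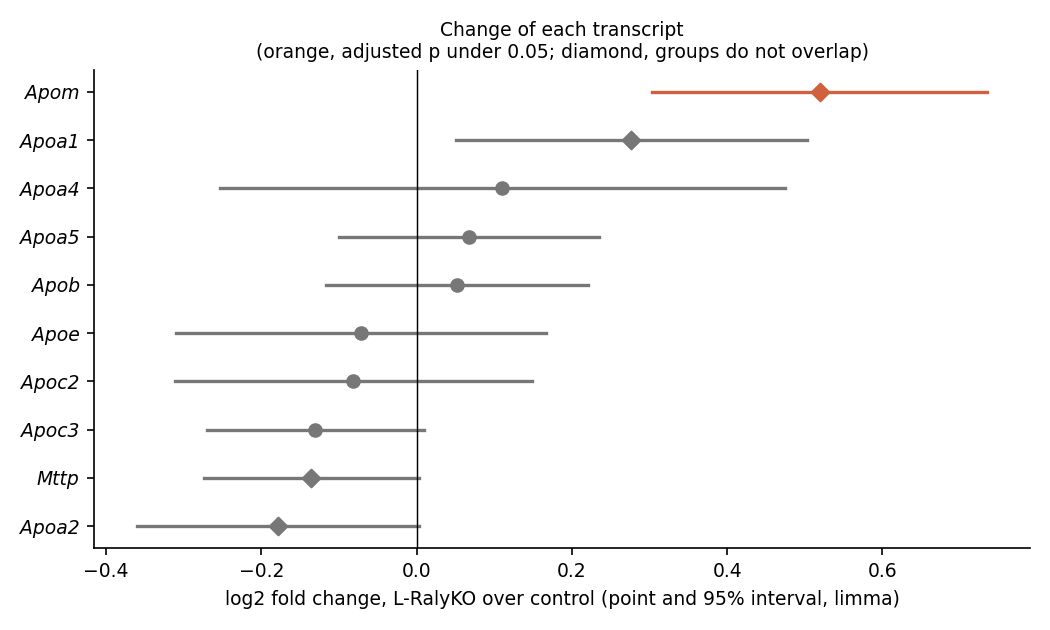
Log2 fold change (L-RalyKO over control) of the 10 transcripts on the horizontal axis, with 95% intervals from limma (n = 3 mice per group), diamonds where the groups did not overlap and orange where the adjusted p was under 0.05. Apom, at 0.52, is the one whose adjusted p was under 0.05, and the other transcripts lie between −0.18 (Apoa2) and 0.28 (Apoa1).

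Apom encodes apolipoprotein M, a small protein carried mostly on HDL that transports sphingosine-1-phosphate. The gene (ENSMUSG00000024391.6) lies at chr17:35265942-35268995 on the minus strand of NCBIM37 (mm9) and its first transcript has 6 exons. Its values were 57.9, 75.7 and 59.6 in the control mice and 92.6, 88.6 and 94.96 in the L-RalyKO mice. All L-RalyKO mice lay above all controls, and control 2 was the nearest to them. The means were 64.4 ± 9.85 and 92.0 ± 3.23 (SD, n = 3 mice each), a difference of 0.52 on the log2 scale (SE 0.095, 95% interval 0.30 to 0.74, limma adjusted p = 0.0166). The exact permutation test gave the smallest p it allows, 0.1 (two-sided). At 1941 to 3609 reads per mouse the spread between animals, not the depth, set the error. The direction was the same under all 15 alternative settings, and the adjusted p was over 0.05 in 3 of them, namely without control 1 (0.0561), without L-RalyKO 1 (0.0604) and without L-RalyKO 3 (0.0551). Of the genes tested, 2.77% had a smaller p than Apom.

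Within 50 kb of Apom there were 7 tested neighbours, among them Bag6 and Csnk2b, of which 0 passed the test (6.55% of all genes did). Their log2 fold changes ran from −0.05 to 0.10 with a median of 0.04. The closest, D17H6S53E, ends 142 bp from Apom and had values of 6.98 ± 0.665 in controls and 7.19 ± 0.898 in L-RalyKO mice (SD, n = 3 each).

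**Figure D2:**
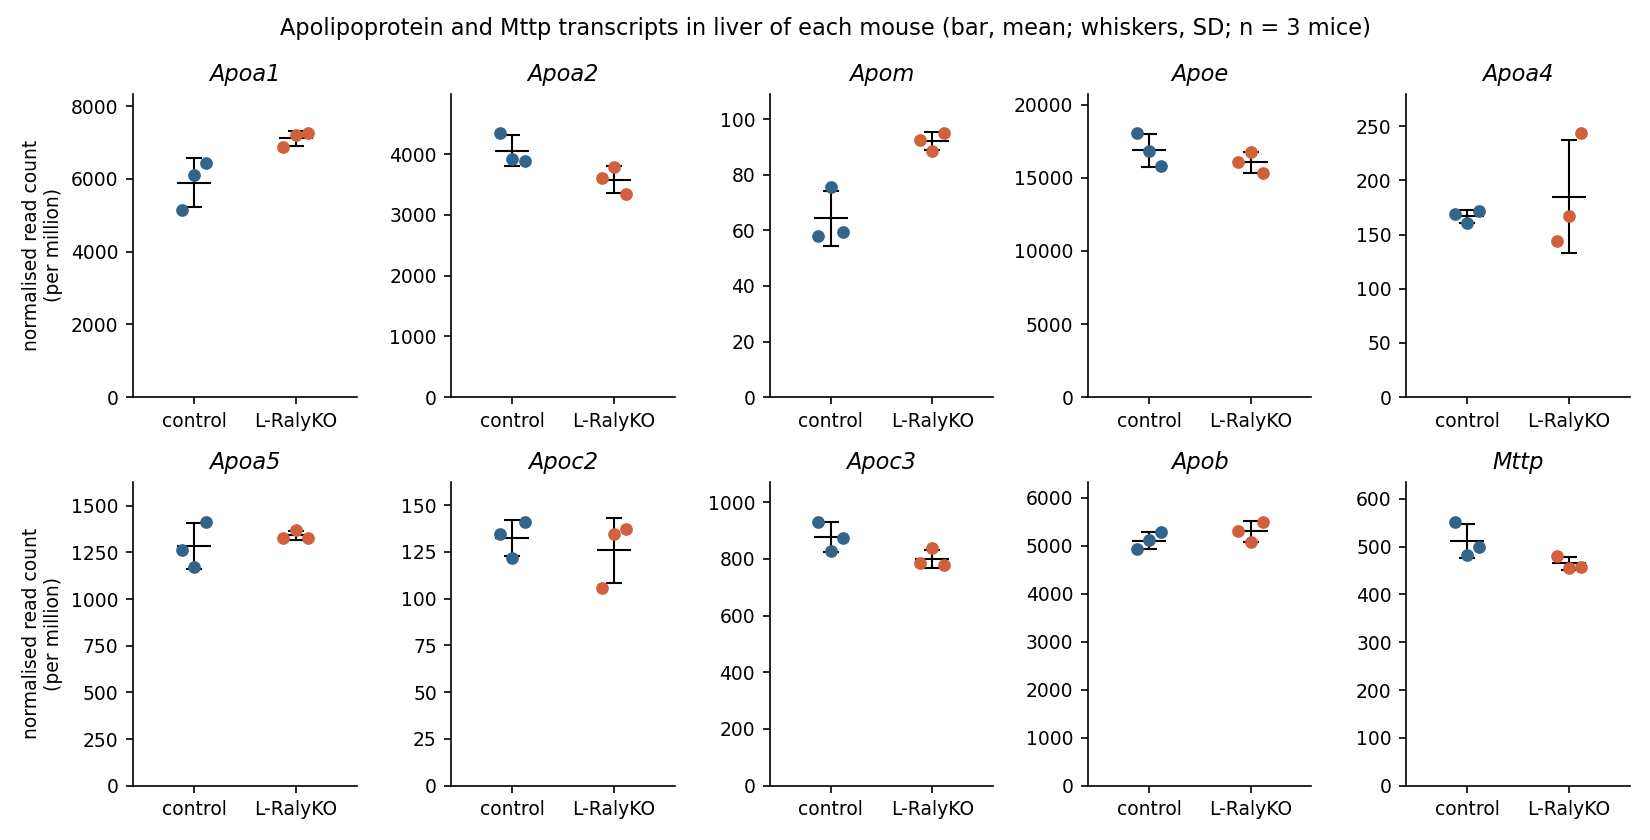
Values of the 10 transcripts (CPM, not divided by length) in each of the 3 control and 3 L-RalyKO mice, with 1 panel per gene, points for mice, bars for group means and whiskers for the SD. Only in the panels of Apom and Apoa1 do all L-RalyKO mice lie above the controls, and only in those of Apoa2 and Mttp do they all lie below.

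Apoa1 encodes the principal protein of HDL and the activator of the enzyme that esterifies HDL cholesterol. It lies at chr9:46036663-46038549 on the plus strand (ENSMUSG00000032083.8, 4 exons). Values were 5141, 6116 and 6430 in controls and 6874, 7203 and 7260 in L-RalyKO mice. Every L-RalyKO mouse was above every control, and control 1 was well below the other two. The means were 5896 ± 672 and 7112 ± 208 (SD, n = 3 each), a difference of 0.28 on the log2 scale (SE 0.099, 95% interval 0.05 to 0.50). The unadjusted p of 0.0222 did not hold after adjustment over all genes (limma adjusted p = 0.141), and the exact permutation test gave 0.1. DESeq2 on the recovered reads was the only alternative that put Apoa1 past the threshold (log2 fold change 0.27, adjusted p = 0.0198). Without control 1 the log2 fold change was 0.18.

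Apoa2, the second most abundant protein of HDL, lies at chr1:173155185-173156510 on the plus strand (ENSMUSG00000005681.6). Its values went the other way, with 4347, 3926 and 3886 in controls and 3609, 3782 and 3349 in L-RalyKO mice. The groups did not overlap, but the gap between control 3 and L-RalyKO 2 was small. This was a log2 difference of −0.18 (SE 0.080, 95% interval −0.36 to 0.00, limma adjusted p = 0.228), and it did not pass under any of the 15 alternatives. Because Apoa1 was higher and Apoa2 lower, the ratio of the Apoa1 value to the Apoa2 value within a mouse was 1.18, 1.56 and 1.65 in controls and 1.91, 1.90 and 2.17 in L-RalyKO mice. These ratios did not overlap between the groups (1.47 ± 0.249 and 1.99 ± 0.152, SD, n = 3 each). The ratio was formed after the direction of both genes was known and was not tested.

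Sequence upstream of the start site is given for the 4 genes whose groups did not overlap, to show which short motifs of liver transcription factors they hold. The 250 bases before the start were taken from RefSeq (GRCm38.p6) for the 9 members that have an entry. Each was matched without a mismatch to 1 place on the gene's own chromosome and strand in NCBIM37, and other chromosomes were not searched. Where RefSeq has several starts (Apoa2, Apoa5 and Apoe), the matched one nearest to the start in GENCODE vM1 was used. Coordinates are from NCBIM37, sequences run 5′ to 3′ on the strand of the gene, and capitals mark the matches to the motifs searched. Where GENCODE vM1 starts the gene further upstream, only bases outside it are shown. For Apom, 249 of the 250 bases lie inside the gene in that annotation, and only 30 bases around its match are shown.
Apom (chr17:35268796-35268825, minus strand): ggcttgggttgGAAAACAaggttgaagtta
Apoa1 (chr9:46036463-46036662, plus strand): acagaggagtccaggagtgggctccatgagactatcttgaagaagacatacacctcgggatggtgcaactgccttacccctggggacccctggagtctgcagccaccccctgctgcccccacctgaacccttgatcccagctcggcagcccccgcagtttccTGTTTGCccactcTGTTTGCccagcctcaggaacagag
Apoa2 (chr1:173154935-173155184, plus strand): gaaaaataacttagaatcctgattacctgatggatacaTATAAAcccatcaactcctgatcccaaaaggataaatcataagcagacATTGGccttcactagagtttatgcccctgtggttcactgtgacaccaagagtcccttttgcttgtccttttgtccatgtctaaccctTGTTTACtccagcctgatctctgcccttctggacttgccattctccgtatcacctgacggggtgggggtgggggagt
Mttp (chr3:137806383-137806632, minus strand): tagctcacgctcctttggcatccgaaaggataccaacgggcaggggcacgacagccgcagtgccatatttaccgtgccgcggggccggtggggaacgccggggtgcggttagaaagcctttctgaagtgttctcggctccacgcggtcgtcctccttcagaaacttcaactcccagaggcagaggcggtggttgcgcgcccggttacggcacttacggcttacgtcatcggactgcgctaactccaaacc
The letters TGTTTNC (N is any base), searched on either strand for the core motif of the FOXA factors, were found in 5 of the 9 windows. These were the windows of Apoa1, Apoa2, Apoa5, Apob and Apom. Of 32536 RefSeq promoter windows of the same length, 17.8% held these letters. In Apoa1 they occur at positions −88 and −75 from the RefSeq start (first base of the match), in Apoa2 at −77, and in Apom on the opposite strand at −68. The match in Apom reads TGTTTTC, with T at the open position, where all the other matches have A or G. It is thus a looser match than theirs and may not be a FOXA core. The CCAAT box bound by NFY was found in 1 window, that of Apoa2 on the opposite strand at −164 (33.8% of all windows), and TATAAA in 3, among them Apoa2 at −212 (12.3% of all). The half-site AGGTCA of nuclear receptors was found in Apoc2 alone (14.0% of all). The HNF4 element CAAAGTCCA, the palindromic HNF1 element and the sterol regulatory element TCACNCCAC were found in none of the 9. They are rare, in 0.387%, 0.00922% and 1.045% of all windows. The matches do not overlap each other. A match describes the letters, and no match says only that these letters are not in the window. The window of Mttp held none of the motifs searched. Apoc3 had no entry in the promoter table.

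Apoe, the ligand by which remnant particles are taken up through the LDL receptor family, lies at chr7:20281458-20284515 on the minus strand (ENSMUSG00000002985.9). Its values were 18050.0, 16803 and 15792 in controls and 16049, 16765 and 15334 in L-RalyKO mice. The ranges overlapped, with L-RalyKO 2 above control 3. On the log2 scale the difference was −0.07 (SE 0.10, 95% interval −0.31 to 0.17, limma adjusted p = 0.739). With a mouse left out it ran from −0.12 (without control 3) to −0.02 (without control 1).

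Apoc2, Apoc3 and Apoa5 set how fast lipoprotein lipase works on circulating triglyceride, Apoc2 as its cofactor, Apoc3 as a restraint and Apoa5 as a stimulator. None of them passed the test. Apoc3 (chr9:46041016-46043719, minus strand, ENSMUSG00000032081.3) had values of 931, 828 and 872 in controls and of 786, 837 and 778 in L-RalyKO mice. Of the L-RalyKO mice, mouse 2 lay within the control range and the other two below it. L-RalyKO liver differed by −0.13 on the log2 scale (SE 0.061, 95% interval −0.27 to 0.01, limma adjusted p = 0.250). Without control 1 this difference was −0.09. Apoa5 (chr9:46076716-46080002, plus strand, ENSMUSG00000032079.5) had values of 1261, 1174 and 1415 in controls and of 1329, 1369 and 1325 in L-RalyKO mice, all of them inside the control range. For Apoa5 the log2 difference was 0.07 (SE 0.074, 95% interval −0.10 to 0.24, limma adjusted p = 0.642). With a mouse left out it ran from 0.005 (without control 2) to 0.14 (without control 3). The ratio of the Apoc3 value to the Apoa5 value was lower in each L-RalyKO mouse than in each control (0.597 ± 0.0131 against 0.686 ± 0.0632, SD, n = 3 each). This ratio too was formed after the values had been seen.

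Apoc2 lies at chr7:20256928-20266772 on the minus strand (ENSMUSG00000002992.10). Its values were 134.5, 122.0 and 141.2 in controls and 105.7, 134.6 and 137.3 in L-RalyKO mice. Only L-RalyKO 1 lay below the controls. The log2 fold change of −0.08 (SE 0.10, 95% interval −0.31 to 0.15, limma adjusted p = 0.687) turned to 0.04 without that mouse. Apoc2 shares 112 bp of annotated exon (12.02% of its exon length) with Apoc4 on the same strand, and 6.79% of its 50-base words, so that the split of reads between them is uncertain. Apoc4 had values of 397 ± 21.3 and 386 ± 19.4 (SD, n = 3 each; log2 fold change −0.04).

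Apoa4, which the intestine and, in the mouse, the liver secrete on triglyceride-rich particles, lies at chr9:46048779-46051542 on the plus strand (ENSMUSG00000032080.6). Its values were 168.5, 160.3 and 172.0 in controls and 144.1, 166.7 and 243.5 in L-RalyKO mice. L-RalyKO 3 was far above all the others and L-RalyKO 1 below them. The coefficient of variation was 28.2% in L-RalyKO mice and 3.60% in controls, while for Apom it was 3.51% and 15.3%. The log2 fold change of Apoa4 was 0.11 (SE 0.16, 95% interval −0.25 to 0.47, limma adjusted p = 0.737), and it turned to −0.11 without L-RalyKO 3. An antisense gene, Gm10680, overlaps 632 bp of the exons of Apoa4 (34.8%). The strand setting of the counting is not stated, so that reads of this gene cannot be told from those of Apoa4.

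Apob encodes the structural protein of VLDL and, by the editing of its mRNA, the shorter form apoB48. It lies at chr12:7984454-8023641 on the plus strand (ENSMUSG00000020609.8) and has 29 exons. Its values were 4930, 5118 and 5286 in controls and 5309, 5085 and 5506 in L-RalyKO mice. The ranges overlapped, L-RalyKO 2 lying below control 2. The groups differed by 0.05 on the log2 scale (SE 0.074, 95% interval −0.12 to 0.22, limma adjusted p = 0.733). The interval does not hold a change of 1.3-fold in either direction (its bounds correspond to 0.92- and 1.17-fold). With a mouse left out the log2 fold change of Apob ran from 0.02 (without L-RalyKO 3) to 0.08 (without L-RalyKO 2).

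Mttp encodes the large subunit of the transfer protein that lipidates apolipoprotein B, and it lies at chr3:137752819-137806352 on the minus strand (ENSMUSG00000028158.8). Values were 552, 483.5 and 498.5 in controls and 481.4, 456 and 457 in L-RalyKO mice. Each L-RalyKO mouse was below each control, although L-RalyKO 1 and control 2 were close to each other. The means were 511 ± 36.2 and 465 ± 14.3 (SD, n = 3 each), a log2 difference of −0.14 (SE 0.061, 95% interval −0.27 to 0.00, limma adjusted p = 0.231). The exact permutation test gave 0.1. Without control 1 the log2 fold change of Mttp was −0.08. The ratio of the Apob value to the Mttp value was 10.0 ± 0.963 in controls and 11.4 ± 0.557 in L-RalyKO mice (SD, n = 3 each), without overlap. All ratios given here were formed after the values had been seen, mostly from genes already known to differ in direction, and none was tested. That of Apom to Apoa1 overlapped between the groups (0.0110 ± 0.00158 and 0.0129 ± 0.000597, SD, n = 3 each), and that of Apom to Apob did not (0.0126 ± 0.00191 and 0.0174 ± 0.000105, SD, n = 3 each).

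Levels of different genes were compared per kilobase of annotated exon. In controls Apoe was the highest with 8526 per kb, followed by Apoa2 (7547), Apoa1 (4770.1), Apoc3 (865), Apoa5 (509.8), Apob (367), Apoc2 (142), Mttp (116), Apoa4 (92.0) and Apom (62.6). Apoe was thus 136-fold above Apom. The order of the group means was the same in L-RalyKO liver, where Apoe stood at 8106 per kb, Apoa2 at 6666, Apoa1 at 5754, Apob at 380.4, Mttp at 105 and Apom at 89.4. Among controls, the ranges of neighbours in that order overlapped only for Apoe and Apoa2. Among L-RalyKO mice they overlapped only for Mttp and Apoa4 and for Apoa4 and Apom. These lengths count each exonic base of all annotated transcripts once, so a gene with long rare exons is set too low.

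**Figure D3:**
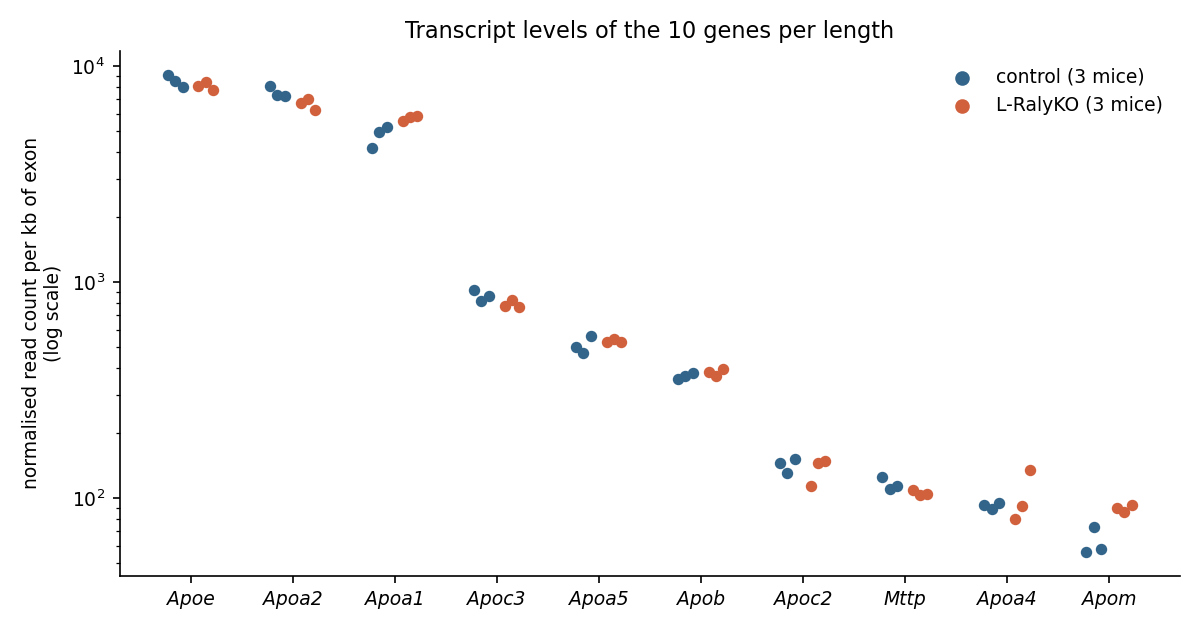
Level of the 10 transcripts per kilobase of annotated exon, on a log axis, in each control and L-RalyKO mouse (points; n = 3 per group), ordered by the control mean. Apoe, Apoa2 and Apoa1 stand highest in both groups, and Apom is lowest in both, at 62.6 and 89.4.

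The genes of the apolipoprotein clusters were also set side by side. On chromosome 9, from Apoa1, the start of Apoc3 is 7.06 kb away on the opposite strand, that of Apoa4 12.1 kb and that of Apoa5 40.1 kb, and the log2 fold changes were 0.28, −0.13, 0.11 and 0.07 in that order. None of the 4 passed the test, the 95% intervals of Apoc3, Apoa4 and Apoa5 hold 0, and differences between the genes were not tested. On chromosome 7 the log2 fold changes were −0.07 for Apoe, 0.02 for Apoc1, which inhibits the uptake of remnants, −0.04 for Apoc4 and −0.08 for Apoc2, and again none passed. The ratio of the Apoa1 value to the Apoc3 value, genes that lie next to each other, was 6.76 ± 1.07 in controls and 8.89 ± 0.386 in L-RalyKO mice (SD, n = 3 each) and did not overlap. It was formed after the values had been seen.

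**Figure D4:**
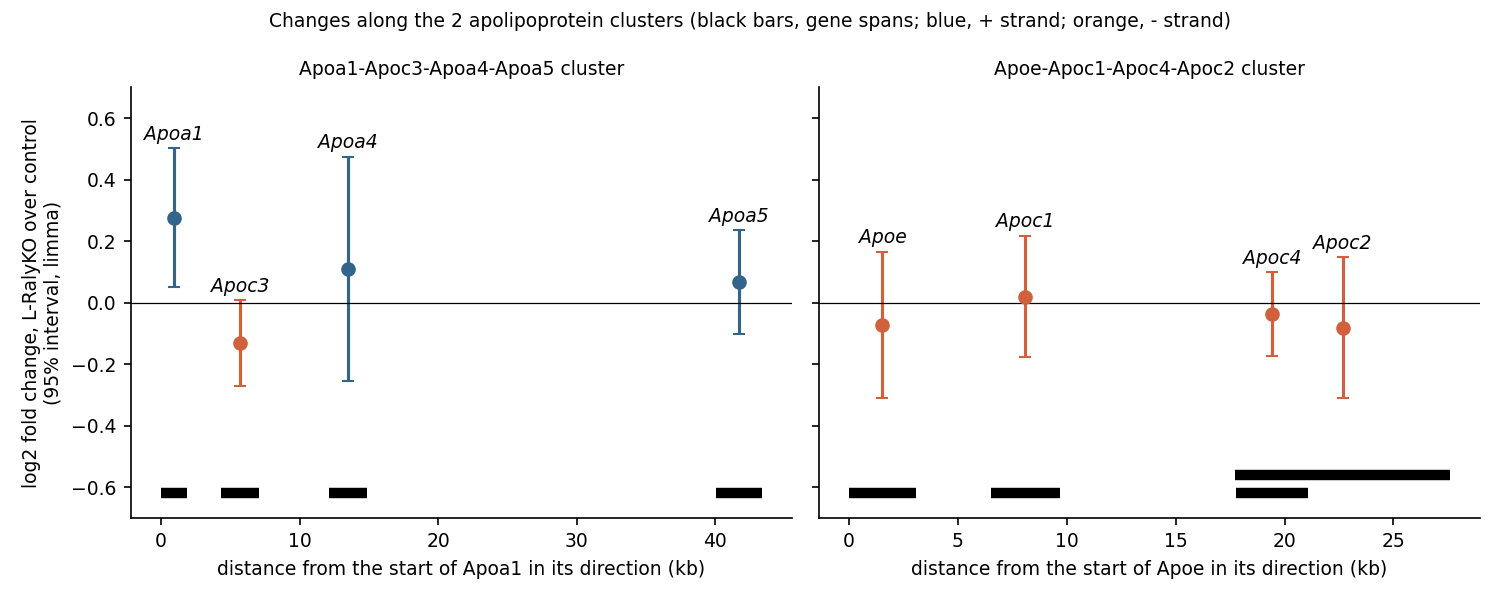
Log2 fold change (L-RalyKO over control, points, with 95% intervals from limma, n = 3 mice per group) of the genes of the chromosome 9 (left) and chromosome 7 (right) clusters against distance in kb from the start of Apoa1 or Apoe, with black bars for the gene spans and color for the strand. Apoa1 (0.28) and Apoc3 (−0.13), on opposite strands, have opposite signs, and the genes around Apoe lie between −0.08 and 0.02.

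Other apolipoproteins were examined from a list of 24 genes, of which 15 were tested. Here 3 rose and none fell, against 6.55% of all genes, and the median log2 fold change was 0.06. Saa1, the acute-phase apolipoprotein that travels on HDL, had values of 15.9, 10.4 and 12.03 in controls and of 20.6, 23.0 and 24.0 in L-RalyKO mice (log2 fold change 0.79, limma adjusted p = 0.0118). Apol9b rose from 63.8 ± 7.90 to 90.9 ± 4.66 (SD, n = 3 each; log2 fold change 0.51, limma adjusted p = 0.0126) and Apol9a from 24.7 ± 4.42 to 35.0 ± 1.13 (SD, n = 3 each; log2 fold change 0.50, limma adjusted p = 0.0403). The apolipoprotein L genes are intracellular relatives of the family, and Apol9a shares 52.5% of its 50-base words with Apol9b, so that reads could be split between them and the pair may not be independent. Apol9a lost its call in 4 alternatives, those with all genes with a read (adjusted p = 0.0789) and without each L-RalyKO mouse in turn. Saa1 shares 10.8% of its words with Saa2 and Saa3, and both Saa1 and Apol9b passed under all 15 alternatives.

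All 36 genes of VLDL assembly and export beyond the members were tested, of which 1 rose and 1 fell (5.56%, against 6.55% of all genes), with a median of 0.02. Tmem41b, an endoplasmic reticulum scramblase needed for lipoprotein release, had values of 18.5, 20.3 and 17.9 in controls and of 25.2, 24.1 and 23.7 in L-RalyKO mice (log2 fold change 0.35, limma adjusted p = 0.0172). Soat2, which esterifies cholesterol for packing into lipoproteins, had values of 31.5, 35.0 and 31.2 in controls and of 27.0, 25.9 and 24.9 in L-RalyKO mice (log2 fold change −0.32, limma adjusted p = 0.0246). For both genes the groups were apart. P4hb, the partner of Mttp in the transfer complex, did not pass (1493 ± 23.0 and 1449.7 ± 12.3, SD, n = 3 each; log2 fold change −0.04, limma adjusted p = 0.686). P4hb was named for its role and Cidec, a lipid droplet protein, after its values were seen (38.8, 7.54 and 14.1 in controls, 4.71, 6.30 and 5.58 in L-RalyKO mice, log2 fold change −1.41, limma adjusted p = 0.105). Its highest value was in control 1, the mouse with the highest summed adipocyte markers (20.7), whose part in this was not tested. Neither of the 2 calls was firm, since none of the list was left without control 1, without L-RalyKO 1 or without L-RalyKO 2, and 1 gene without L-RalyKO 3. Soat2 was also lost without control 2 (adjusted p = 0.0616). The log2 fold changes moved little, and over the 15 alternatives ran from 0.31 to 0.40 for Tmem41b and from −0.35 to −0.26 for Soat2.

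**Figure D5:**
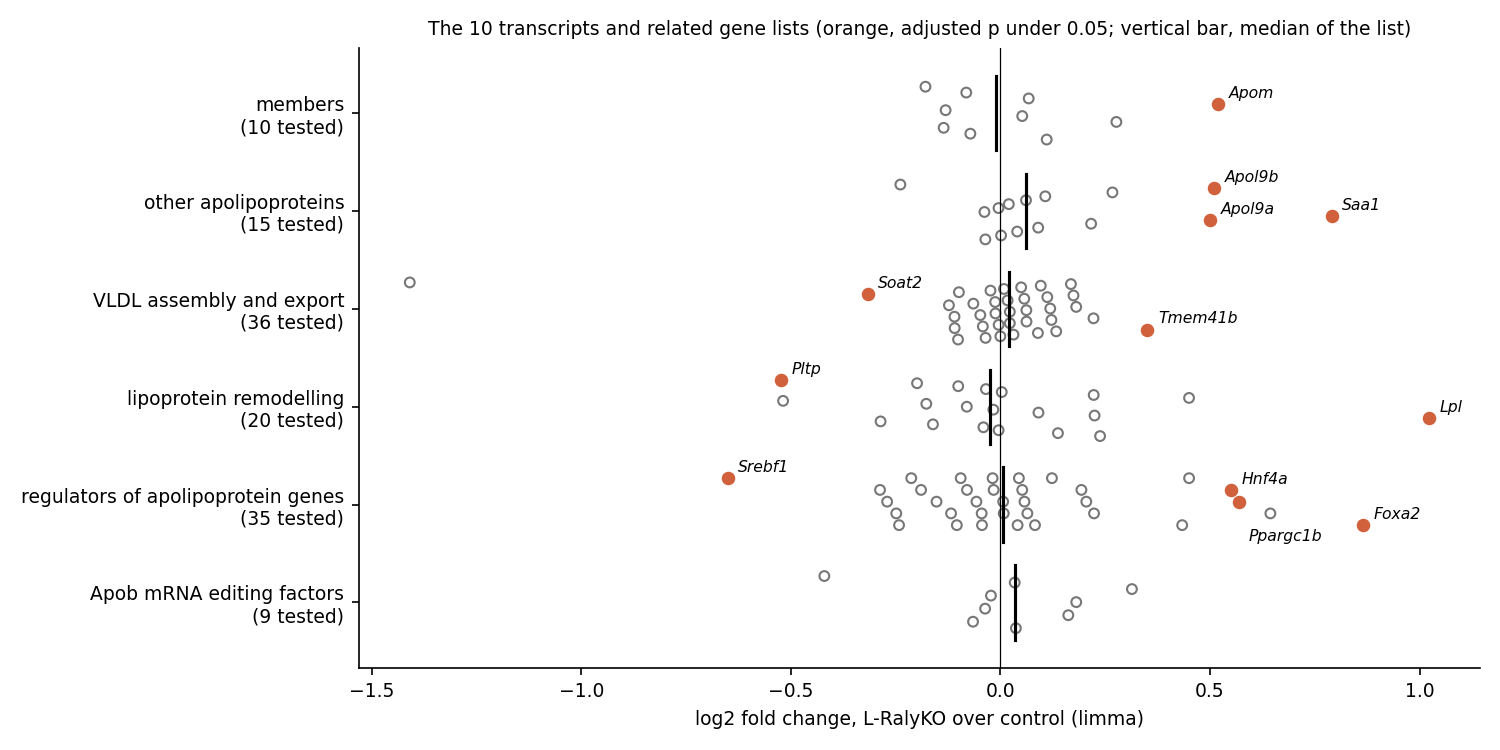
Log2 fold change (L-RalyKO over control, limma, n = 3 mice per group) of each tested gene in the lists around the 10 transcripts, 1 row of points per list, with a bar at the list's median and genes with an adjusted p under 0.05 in orange and named. These are Apom, Saa1, Apol9a, Apol9b, Tmem41b, Soat2, Lpl, Pltp, Foxa2, Hnf4a, Ppargc1b and Srebf1, and the lone open point at −1.41 is Cidec.

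Of a list of 23 genes that remodel lipoproteins in the circulation, 20 were found and tested. Among these 20, 1 rose and 1 fell, with a median of −0.03. This was 10% of those tested, against 6.55% of all genes (3.36% higher and 3.19% lower). At an unadjusted p under 0.05 there were 10 of 20 (22.7% of all genes), and the groups did not overlap for 10 of 20 (28.1% of all). Lpl, the lipase that Apoc2 activates, is low in adult liver and had values of 7.66, 13.5 and 15.6 in controls and of 22.1, 31.1 and 22.7 in L-RalyKO mice (log2 fold change 1.02, limma adjusted p = 0.0356). Pltp, which transfers phospholipid to HDL, had values of 99.4, 96.5 and 83.6 in controls and of 61.5, 79.1 and 54.7 in L-RalyKO mice (log2 fold change −0.52, limma adjusted p = 0.0443). The groups did not overlap for either gene. Both calls were lost with edgeR on the recovered reads (adjusted p = 0.131 for Lpl and 0.0858 for Pltp) and with all genes with a read (0.0769 and 0.0887). They were also lost without control 2, without L-RalyKO 1 and without L-RalyKO 3, and that of Lpl without L-RalyKO 2 and that of Pltp without control 1. With edgeR the log2 fold changes were 1.04 for Lpl and −0.52 for Pltp. Over the 15 alternatives they ran from 0.74 to 1.21 and from −0.67 to −0.41. DESeq2 called 5 genes of the list, with 1088 genes called in all.

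Transcription factors and cofactors known to act on apolipoprotein genes made a list of 36, of which 35 were tested, 3 rose and 1 fell (11.4%, against 6.55% of all genes, median 0.01). Hnf4a, a nuclear receptor required for most hepatic apolipoprotein transcription, had values of 520.3, 542 and 680.5 in controls and of 899.6, 809 and 829 in L-RalyKO mice (log2 fold change 0.55, limma adjusted p = 0.0155). Foxa2, a pioneer factor of liver enhancers, had values of 13.3, 13.9 and 16.7 in controls and of 33.0, 28.9 and 21.3 in L-RalyKO mice (log2 fold change 0.86, limma adjusted p = 0.0126). All L-RalyKO mice were above all controls for both. Ppargc1b, a coactivator of lipogenic and lipoprotein genes, rose from 8.48 ± 1.501 to 12.9 ± 0.467 (SD, n = 3 each; log2 fold change 0.57, limma adjusted p = 0.0204). Srebf1, which encodes the SREBP1 factors of lipogenesis, fell from 311 ± 11.96 to 200.5 ± 40.1 (SD, n = 3 each; log2 fold change −0.65, limma adjusted p = 0.0173). None of the 4 calls was left without control 1, although the log2 fold changes were close to those with it. They were then 0.81 for Foxa2 (adjusted p = 0.0501), 0.48 for Hnf4a (0.0510), −0.62 for Srebf1 (0.0635) and 0.55 for Ppargc1b (0.0713). Without L-RalyKO 1 that of Foxa2 alone was left, and without control 3 there were 7 calls on the list. Total count scaling, edgeR and DESeq2 each gave 8 calls, with 795, 783 and 1088 genes called in all. Hnf4a was also lost without control 2 (adjusted p = 0.0507), and Ppargc1b without L-RalyKO 2 (0.0533), without L-RalyKO 3 (0.0586) and with all genes with a read (0.0515).

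ApoB48 arises when Apobec1 deaminates a cytidine of the Apob mRNA with the help of RNA-binding cofactors. None of 9 factors passed the test in limma, where 6.55% of all genes did. DESeq2 called 2 of them and edgeR 1, with 1088 and 783 genes called in all (758 in limma). At an unadjusted p under 0.05 there were 2 of 9, against 22.7% of all genes. The 2 with the smallest p were Celf2, an RNA-binding protein that binds Apob mRNA (20.4 ± 2.55 and 15.02 ± 1.83, SD, n = 3 each; log2 fold change −0.42, limma adjusted p = 0.0585) and Rbm47, a cofactor of the editing complex (79.9 ± 0.861 and 100.7 ± 19.0, SD, n = 3 each; log2 fold change 0.31, limma adjusted p = 0.152). Editing itself cannot be read from these values.

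The tissue carried the markers of liver. Summed values of 7 hepatocyte markers were 86738 to 94728 in controls and 95448 to 96258 in L-RalyKO mice, which did not overlap, and 0 of the 7 passed the test. The sums of the macrophage (177 to 251 and 172 to 221), stellate cell (228 to 254 and 221 to 286) and endothelial markers (208 to 216 and 183 to 227) overlapped, as did those of cholangiocytes (32.5 to 34.7 and 32.2 to 41.0), of lymphocytes and neutrophils (7.60 to 9.68 and 6.06 to 8.24) and of enterocytes (66.4 to 85.3 and 70.7 to 85.7, with Alpi and Sis at 0 in all 6 mice). The adipocyte sum was 7.85 to 20.7 in controls and 5.605 to 5.99 in L-RalyKO mice, with 1 of 2 tested genes lower (Cfd) and with the defining markers Adipoq, Lep, Retn and Plin1 under 1 in mean value. Apom and Apoa1 were higher, and Apoa2 and Mttp lower, in the same mice in which the hepatocyte sum was higher. Most of that sum is Alb, whose groups overlapped (63858 to 71897 in controls and 70091 to 70819 in L-RalyKO mice). Lpl, which adipocytes make, was higher where the adipocyte sum was lower. The part of these markers in the results was not tested.

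The genes whose log2 values followed Apom most closely over the 6 mice, by Pearson correlation, were Shank2 (r = 0.993), Arhgef19 (0.990), Sipa1l3 (0.987), Tgds (0.986) and H2-T23 (0.986). Their fold changes were smaller than that of Apom, from 1.19-fold for Tgds to 1.33-fold for Sipa1l3. All 5 lay higher in each L-RalyKO mouse than in each control. That follows from their choice by likeness to Apom, whose groups did not overlap, and is no separate result (28.1% of all genes did not overlap, in either direction). Of 11579 other genes, 341 (2.94%) had an r over 0.9 with Apom. These correlations hold the difference between the groups within them and are a description of 6 mice whose values share libraries and scaling. Within the 10 transcripts, Apoa1 followed Apom in the same direction (r = 0.82) and Apoc3 (−0.91), Mttp (−0.85) and Apoa2 (−0.84) in the opposite one. Among the regulators, r was 0.98 for Ppargc1b, 0.78 for Hnf4a, 0.77 for Foxa2 and −0.88 for Srebf1.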

How the data were processed

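Liver RNA-seq was used, with 3 mice of each group. Other assays of the study (ATAC-seq, ChIP-seq) were not analysed here. Reads were aligned with TopHat to mm9, and the study describes FPKM from Cufflinks 2.0.2. The deposited values are instead a normalized signal, namely reads per gene over an effective library size (CPM), for which the authors used factors equal to TMM factors recomputed with edgeR. In each library 100% of values were whole multiples of 1 read (tolerance 0.01), and reads were recovered. Each column names a virus and a number, by which it was assigned to a mouse.

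The values were compared with limma 3.58.1 (intensity trend, R 4.3.3) on log2(value + 1), and genes whose mean value was under 1 were left out. Alternatives were edgeR 4.0.16, DESeq2 1.42.0 and limma voom on recovered reads, total count and upper-quartile scaling, a pseudocount of 0.1, 2 other low-value filters, leaving out each mouse, and a replicate block. In a simulation of 11575 genes limma recovered 36% of genes changed 1.3-fold and 84% changed 1.5-fold, and 6.43% of its calls were false. The simulation gave every gene the same spread beyond counting noise and held no mouse that stood apart as control 1 did. These rates may therefore not carry over to the real genes.

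The 10 transcripts and the gene lists were chosen with earlier results of these data known. Named are all 10, Raly, genes of each other list with an adjusted p under 0.05 (or the 2 with the smallest p), the 5 genes most correlated with the member of smallest p, and genes that overlap or neighbour a member. P4hb, Cidec and the markers fall outside this rule.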

Additional observations from a re-analysis of the deposited data

How the results depend on the processing

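The fold changes of the 10 transcripts kept their direction and their side of the threshold in 144 of 150 recomputations over 15 alternatives. The exceptions were Apom, over the threshold without control 1, L-RalyKO 1 or L-RalyKO 3, Apoa1, past it with DESeq2, and 2 changes of sign. With a mouse left out Apoa4 ran from −0.11 (without L-RalyKO 3) to 0.27 and Apoc2 from −0.15 to 0.039 (without L-RalyKO 1). The number of the 10 that passed was 1, 2 with DESeq2 and 0 to 1 when a mouse was left out. Over all genes, 758 passed, 484 when all genes with at least 1 read were tested (more genes in the adjustment), 1088 with DESeq2, 783 with edgeR, 795 with total count scaling and 335 to 812 when a mouse was left out. For VLDL assembly and export the count of 2 became 0 to 2 when a mouse was left out. For lipoprotein remodelling the count of 2 became 1 with edgeR, 5 with DESeq2, 0 with all genes and 0 to 4 when a mouse was left out. For the regulators the count of 4 became 8 with total count scaling, edgeR and DESeq2 alike and 0 to 7 when a mouse was left out. For the Apob editing factors the count of 0 became 1 with total count scaling, 1 with edgeR, 2 with DESeq2 and 0 to 1 when a mouse was left out. For the other apolipoproteins the count of 3 stayed within 1.5 times in all alternatives. The causes were not tested.

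Same-numbered mice did not deviate together (correlations of 0.07, −0.02 and 0.02), and mice of different numbers had correlations from −0.09 to 0.06. These values give no sign that the numbers pair the mice. They cannot exclude a pairing, which need not show in most genes. With a replicate block 704 genes passed, Apom kept its call (adjusted p = 0.0298 from limma) and 1 of the editing factors passed, Celf2 (adjusted p = 0.0260 from limma).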

Other observations

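Some pairs of the 10 transcripts varied together, or in opposite directions, among mice of the same group, and others did not. After each group's mean was subtracted from the log2 values, the 6 deviations of Apoa2 and Apoe had a Pearson r of 0.93, those of Apoa2 and Apoc3 one of 0.85, those of Apob and Apoe one of −0.97 and those of Apoa2 and Apob one of −0.95. Apoa1 and Mttp had an r of −0.90 and Apoc3 and Apom one of −0.83. At the other end, the r was 0.015 for Apoa4 and Apom, −0.038 for Apoa2 and Apoa5 and 0.045 for Apoa5 and Mttp. The first 6 pairs had the largest values of 45 and all were picked after all were computed, the 6 deviations come from 3 mice per group, and the values share their libraries and scaling.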
